A study of Mus musculus with 35 samples.

Results

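SatM, the segregated-nucleus-containing atypical monocytes, were set against the other Ly6C-negative monocytes sorted from the same tissues. The comparison rests on 4 of the 35 arrays of the series: SatM from spleen, SatM from blood, other Ly6C-negative cells from spleen and other Ly6C-negative cells from blood. The members were chosen by the titles of the arrays, and each SatM array was paired with the other Ly6C-negative array of its own tissue. All cells came from male C57BL/6J mice 8 weeks old with no treatment named in the labels, and were sorted by flow cytometry before total RNA was hybridised to Affymetrix Mouse430_2 arrays, 1 sample per array. According to the labels, the other Ly6C-negative cells are what is left of the Ly6C-negative monocytes once 3 sorts are taken out: SatM, cells negative for Msr1 and Ceacam1, and cells dull for both. Each sort from each tissue is 1 array, the labels do not say how many mice each array holds or whether they were separate mice, and p-values therefore measure only the spread between these arrays.

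Mouse blood monocytes are commonly divided into classical monocytes, which are high in Ly6C, enter inflamed tissue through the chemokine receptor Ccr2 and can become macrophages or dendritic cells, and nonclassical monocytes, which are low in Ly6C, patrol the inner wall of vessels and depend on the transcription factors Nr4a1 and C/EBP beta. SatM are a Ly6C-negative population that the labels tie to fibrosis. They are sorted on Ceacam1, an immunoglobulin-family adhesion molecule, and Msr1, the class A macrophage scavenger receptor, so the levels of these genes belong to the gate. In sorted bulk samples, a lower level of a gene can come from fewer cells of a type or from less RNA per cell, and these cannot be told apart.

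Values are log2 levels per probe set, and 1 probe set stood for each of 18193 genes. All arrays share a lowest value of 2.30, called the floor here, and between 43.6% and 48.3% of each array's probe sets were at it. A difference of 1 is a doubling on this scale. Across genes, SatM and other Ly6C-negative cells correlated at r = 0.978 in spleen and 0.974 in blood, and the spleen and blood arrays correlated at 0.966 for SatM and 0.981 for other Ly6C-negative cells. Genes of several other cell types were measured in these sorts, and their part in the results was not tested. Summed over 14 B cell genes, the log2 level was 12.81 in spleen and 11.52 in blood SatM, against 12.19 in spleen and 11.46 in blood other Ly6C-negative cells, with Pax5 at the floor in all 4 arrays. The sum of 18 mature neutrophil genes was 15.51 in spleen and 10.27 in blood SatM, against 15.79 in spleen and 12.40 in blood other Ly6C-negative cells, so it was higher in spleen than in blood in both sorts. Of 14 basophil and mast cell genes 10 were at the floor in all 4 arrays, and of 9 erythroid genes 6 were.

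The labels were checked first on the genes that define the sort. Ceacam1 had 12.44 in spleen and 12.71 in blood SatM, against 10.84 in spleen and 10.93 in blood other Ly6C-negative cells, and its 8 probe sets were all higher in SatM in both tissues. Msr1 went the other way at the RNA level, with 9.23 in spleen and 8.59 in blood SatM, against 10.26 in spleen and 9.89 in blood other Ly6C-negative cells, and its 4 probe sets were all lower in SatM in both tissues. Csf1r, the receptor that monocytes need to survive, was at 13.68 and 14.26 in SatM and at 13.41 and 13.99 in other Ly6C-negative cells. Both sorts therefore held a high level of the defining monocyte receptor. Adgre1 and Itgam, which encode the macrophage and myeloid surface antigens of the gate, differed by less than 0.5 in both tissues.

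Scnn1a and Rab36 separated the sorts without overlap. Scnn1a, the alpha subunit of the epithelial sodium channel, was at 5.62 in spleen and 6.52 in blood SatM. It was at the floor in other Ly6C-negative cells of both tissues. On the mean log2 difference of both tissues it was at least 13.6-fold higher in SatM (at least 9.98-fold in spleen). Rab36, a small GTPase, was at the floor in spleen and at 2.79 in blood SatM, against 4.73 in spleen and 5.04 in blood other Ly6C-negative cells. The other channel subunits, Scnn1b and Scnn1g, were at the floor in all 4 arrays. Of the 17 ion channel and transporter genes tested, 2 were higher by at least 1 in both tissues, Scnn1a and Slc11a1, and 1 was lower, the potassium channel Kcnk6, against 2.53% of all tested genes higher and 5.36% lower. Kcnk6 had 5.83 and 6.14 in SatM and 7.45 and 7.92 in other Ly6C-negative cells.

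Over all 10311 genes tested, limma called none (0% at an adjusted p under 0.05 and a difference of at least 1). The smallest adjusted p was 0.194, and 1206 genes had an unadjusted p under 0.05. The fit also held the 2 arrays of cells negative for Msr1 and Ceacam1 from spleen and blood, which add to the estimate of the error. These arrays stand apart: in spleen and blood they had 12.09 and 13.13 of Klrd1 and 14.08 and 14.77 of Gzma, both genes of natural killer (NK) cells, and Csf1r at 9.49 and 2.30. A fit of the 4 compared arrays alone also called 0 genes, with 1985 at an unadjusted p under 0.05. In all of what follows, a gene that is "measured higher" or "measured lower" is described by its levels and has not passed the test, unless a call is named.

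Genes that differed alike in both tissues were those with the same sign in spleen and blood, at least 1 in each, and differences within 1 of each other. There were 200 such genes higher in SatM (1.94% of those tested) and 449 lower (4.35%). Without the limit on likeness, 261 genes (2.53%) were higher by at least 1 in both tissues and 553 (5.36%) were lower. Over all tested genes, 83.9% had spleen and blood differences within 1 of each other. The 261 were 42.8% of the 610 genes higher in spleen SatM and 36.9% of the 708 higher in blood SatM. The 553 were 55.6% of the 995 lower in spleen SatM and 44.1% of the 1254 lower in blood SatM. Differences of opposite sign were few: 31 genes were higher in spleen SatM and lower in blood SatM by at least 1 each, and 12 the reverse. The median difference over all tested genes was -0.13 in spleen and -0.08 in blood, and with each tissue centred on that median the split was 248 higher and 355 lower. Across genes the spleen and blood differences correlated at r = 0.58 and a Spearman coefficient of 0.51. They share no array, and genes are not independent replicates.

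**Figure D1:**
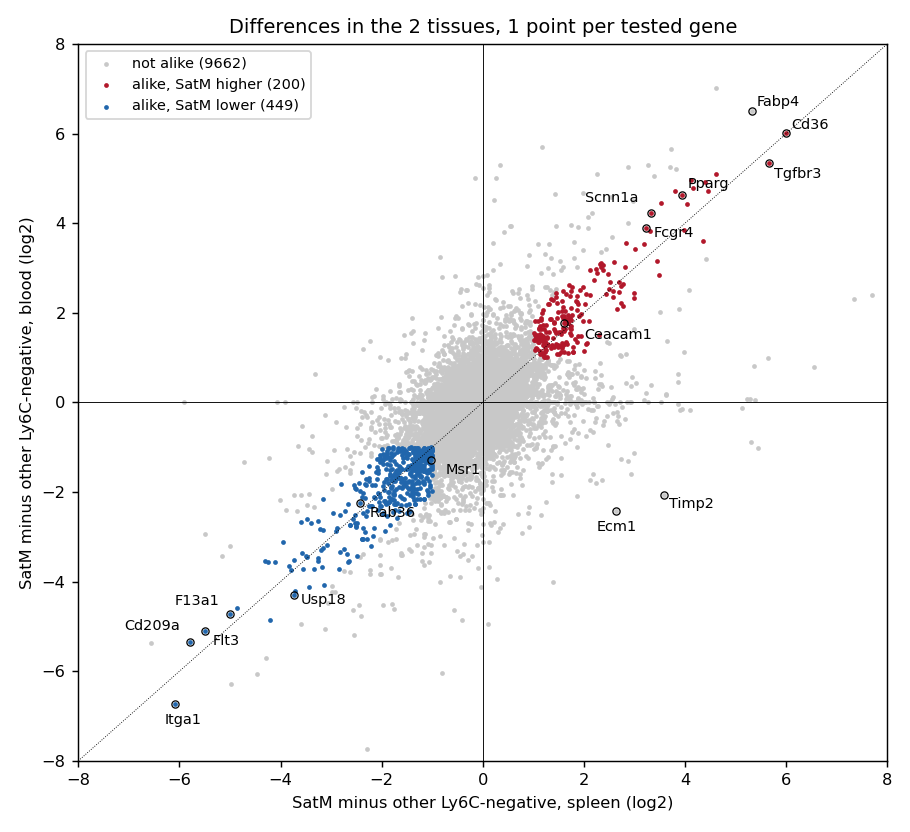
Each point is 1 of the 10311 tested genes, with SatM minus other Ly6C-negative cells in spleen on the horizontal axis and in blood on the vertical axis, both in log2. The 200 red points and the 449 blue points are alike in both tissues, which by definition keeps them near the dotted line of equal differences. Timp2 and Ecm1 stand alone at the lower right.

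Cd36, Tgfbr3, Pparg and Fcgr4 were among the bright genes alike in both tissues and measured higher in SatM, where bright means over the 75th percentile of the array in both arrays of the higher sort. The 15 with the largest differences (in the tissue where each was smaller) ran from 8.88-fold to 64.2-fold higher in a single tissue. Cd36, a scavenger receptor that takes up fatty acids and oxidised lipoprotein, was at 11.42 in spleen and 10.27 in blood SatM, against 5.42 in spleen and 4.26 in blood other Ly6C-negative cells. Tgfbr3, or betaglycan, the co-receptor that presents transforming growth factor beta, was at 10.34 and 9.57 in SatM, against 4.68 and 4.22. Pparg, the lipid-sensing nuclear receptor, was at 7.60 and 7.96 in SatM, against 3.65 and 3.32. For each of these genes both SatM arrays lay far above both other arrays, and the tissues of a sort lay closer together than the sorts did.

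Transcription regulators and signalling genes stood beside them. Tcf7l2, a transcription factor at the end of the Wnt pathway, was at 11.52 in spleen and 11.45 in blood SatM, against 7.99 in spleen and 7.01 in blood other Ly6C-negative cells. Nrarp, a target and inhibitor of Notch signalling, was at 9.65 and 10.14 in SatM, against 5.20 and 5.42. Pou6f1, a POU-domain transcription factor, was at 6.57 and 6.45 in SatM, against 2.58 and 2.59. Cyth3, an exchange factor for ARF GTPases, was higher by 3.20 in spleen and 3.53 in blood, and Heg1, a membrane protein of vessel and heart development, by 3.45 and 3.15. Cells negative for Msr1 and Ceacam1 were above SatM in both tissues for Nrarp (10.56 in spleen and 11.96 in blood) and Pou6f1 (7.33 and 8.35). They were below SatM in both tissues for Tcf7l2, Cyth3 and Heg1. The fitted difference of Tgfbr3 was 5.51 (SE 0.55, adjusted p = 0.232, limma), that of Cd36 was 6.00 (SE 0.74, adjusted p = 0.253) and that of Pparg was 4.29 (SE 0.29, adjusted p = 0.194).

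Several of the leading genes were at or near the floor in 1 or both of the other Ly6C-negative arrays. Tgm3, a transglutaminase best known from skin, was at 6.45 and 7.07 in SatM and at the floor in both other arrays. On the mean log2 difference of both tissues it was at least 22.1-fold higher (at least 17.8-fold in spleen). Dnah12, a dynein heavy chain of cilia, was at 6.41 and 7.25 in SatM and likewise at the floor in both other arrays. On the same mean it was at least 23.2-fold higher (at least 17.2-fold in spleen). Tmem26, a membrane protein, was at 8.06 and 7.39 in SatM, against 3.44 in spleen and the floor in blood other Ly6C-negative cells. Gjb2, the gap junction protein connexin 26, differed between tissues as well as between sorts, with 10.38 in spleen and 7.21 in blood SatM, against 5.99 in spleen and the floor in blood other Ly6C-negative cells. Smagp, a cell adhesion glycoprotein, was higher by 4.03 in spleen and 4.42 in blood. Among the 30 leading genes of both directions, 7 had more than 1 bright probe set, and for all 7 every bright probe set gave the same sign in both tissues.

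**Figure D2:**
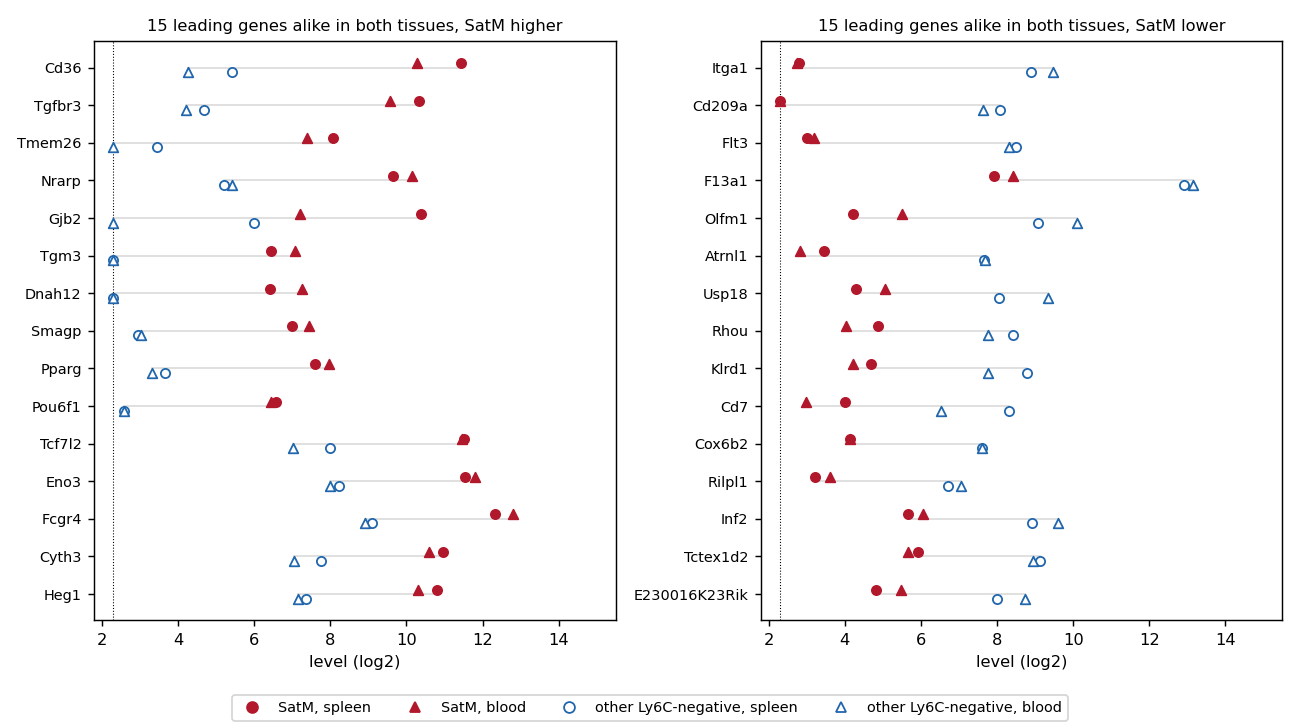
Levels in log2 of the 15 leading genes higher and the 15 lower in SatM among bright genes alike in both tissues. Filled red symbols are SatM, open blue symbols are other Ly6C-negative cells, circles are spleen, triangles are blood, and the dotted line is the floor at 2.30; in every row the 2 SatM arrays lie on 1 side of the 2 other arrays.

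The genes that mark nonclassical monocytes were the list most often higher in SatM. Of the 20 tested, 15 were higher by at least 1 in both tissues, against 2.53% of all tested genes, 11 were alike in both, and none was lower by 1 in both. The median difference of the list was 2.41 in spleen and 2.88 in blood. This list and all others, among them the classical monocyte and interferon-stimulated lists, were chosen with earlier results of these data known. Their shares beside those of all tested genes therefore describe the lists and do not test them. Fcgr4, the Fc receptor for IgG2 antibodies that nonclassical monocytes carry, was at 12.33 in spleen and 12.81 in blood SatM, against 9.10 in spleen and 8.92 in blood other Ly6C-negative cells. Eno3, the muscle form of enolase, was at 11.54 and 11.81 in SatM, against 8.24 and 7.98. Spn, the sialophorin CD43, had 12.19 and 12.29 in SatM, against 9.71 and 9.76. Cells negative for Msr1 and Ceacam1 had 10.46 in spleen and 12.49 in blood for Spn, and were below SatM in both tissues for Fcgr4 and Eno3. Treml4, an innate receptor, and Ace, the angiotensin-converting enzyme, were each higher by more than 2 in both tissues, Treml4 by 2.82 in spleen and 3.56 in blood and Ace by 2.52 and 2.68.

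Not every gene of this list followed. Cx3cr1, the fractalkine receptor, was at 10.31 and 9.999 in SatM and at 10.49 and 9.70 in other Ly6C-negative cells, so the sorts overlapped. Nr4a1 was higher by 0.46 in spleen and by 1.95 in blood. Fabp4, a fatty acid carrier, was among the largest differences of the list, with 12.13 in spleen and 12.27 in blood SatM against 6.81 in spleen and 5.76 in blood other Ly6C-negative cells, and missed the likeness limit because its differences were 5.32 and 6.51. Dusp16, a MAP kinase phosphatase, and Cd9, a tetraspanin, were higher by 3.26 and 2.87 in spleen and by 5.30 and 5.25 in blood. For Cd9, cells negative for Msr1 and Ceacam1 were at 10.32 in spleen and 10.01 in blood, against 11.09 and 9.93 in SatM. They were below SatM in both tissues for Dusp16.

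Of the 29 myeloid transcription factor genes tested, 6 were higher in SatM by at least 1 in both tissues (against 2.53% of all tested genes) and none was lower: Cebpb, Bhlhe40, Ikzf3, Tcf7l2, Spic and Pparg. Cebpb, which encodes C/EBP beta, was at 10.92 in spleen and 10.55 in blood SatM, against 9.76 in spleen and 8.55 in blood other Ly6C-negative cells, and its fitted difference was 1.58 (SE 0.34, adjusted p = 0.349, limma). Ikzf3, the lymphoid zinc finger factor Aiolos, was at 10.75 and 9.87 in SatM, against 8.07 and 7.40. Cebpa, the related factor of the granulocyte and monocyte lineage, had 11.31 and 11.54 in SatM and 11.87 and 12.65 in other Ly6C-negative cells. The median difference of the list was 0.30, against -0.11 over all tested genes. Of its 6 higher members, Cebpb and Pparg are also in the nonclassical monocyte list.

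The C/EBP motif TTGCNNAA, 1 of 7 motifs searched, was looked for on both strands in the 250 bases before the start of each gene (RefSeq promoter windows, build GRCm38.p6). It was found in 24 of the 154 genes alike and higher in SatM that have a window (15.6%), in 40 of the 364 alike and lower (10.99%), in 757 of the 8440 tested genes (8.97%) and in 2930 of all 27025 genes with a window (10.8%). A match is a description of the letters and not a binding site. Of the 12 leading genes lower in SatM that have a window, 1 holds the motif, Tctex1d2, and its stretch is not printed. Of the 15 leading genes higher in SatM, 14 have a window and 4 of them hold the motif. They are shown here with the nonclassical gene Adgre4, as 120 bases on the strand of the gene, with the motif in capitals.
Pparg, chr6:115421946-115422065, plus strand: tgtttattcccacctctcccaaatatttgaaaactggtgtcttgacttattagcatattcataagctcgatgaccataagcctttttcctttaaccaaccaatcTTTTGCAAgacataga
Nrarp, chr2:25180638-25180757, plus strand: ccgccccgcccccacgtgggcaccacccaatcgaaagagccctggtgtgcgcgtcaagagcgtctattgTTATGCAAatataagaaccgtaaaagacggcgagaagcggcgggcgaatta
Tgm3, chr2:130012124-130012243, plus strand: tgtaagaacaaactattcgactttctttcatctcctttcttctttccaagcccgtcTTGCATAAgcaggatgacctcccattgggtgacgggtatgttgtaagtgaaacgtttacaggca
Pou6f1, chr15:100600058-100600177, minus strand: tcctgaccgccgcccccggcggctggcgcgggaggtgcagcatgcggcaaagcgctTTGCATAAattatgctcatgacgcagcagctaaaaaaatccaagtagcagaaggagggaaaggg
Adgre4, chr17:55749864-55749983, plus strand: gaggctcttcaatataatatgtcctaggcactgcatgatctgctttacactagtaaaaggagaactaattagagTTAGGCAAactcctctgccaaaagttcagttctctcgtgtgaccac
Of the other 6 motifs searched, KLF (CCACACCC) was in 14 of the 154 higher genes (9.09%), 5.49% of the lower genes and 4.16% of tested genes. PU.1 (GAGGAAGT) was in 9 (5.84%), 3.02% and 3.15%. The ETS-IRF composite (GGAA, any 2 bases, GAAA) was in 9 (5.84%), 2.20% and 2.45%. NR4A (AAAGGTCA) was in 2 (1.30%), 0.275% and 1.02%. The PPAR direct repeat (AGGTCA, any 1 base, AGGTCA) was in 0, 0% and 0.0237%. Over all genes with a window the shares were, in this order, 3.68%, 2.79%, 2.68%, 1.55% and 0.0407%.

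Genes of classical monocytes were measured lower in SatM. Of the 15 tested, 11 were lower by at least 1 in both tissues, against 5.36% of all tested genes, 7 were alike in both, and none was higher by 1 in both. The median difference of the list was -1.65 in spleen and -1.88 in blood. F13a1, the A subunit of coagulation factor XIII, was at 7.92 in spleen and 8.43 in blood SatM, against 12.92 in spleen and 13.15 in blood other Ly6C-negative cells. Ccr2 was at 10.20 and 11.29 in SatM, against 12.58 and 12.85, and Ccr1, another receptor for inflammatory chemokines, was at 4.11 and 3.79, against 6.77 and 7.35. All 3 genes separated the sorts without overlap.

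The same list also held genes that differed by unequal amounts in the tissues. Vcan, the matrix proteoglycan versican, was at 5.88 in spleen and 8.35 in blood SatM, against 11.37 in spleen and 11.28 in blood other Ly6C-negative cells. Gas7, an actin-binding protein, was at 5.84 and 3.94 in SatM, against 10.13 and 9.64. Cd177, a glycoprotein best known from neutrophils, was at 7.17 and 6.32 in SatM, against 10.14 and 10.43. Lyz2, lysozyme, lay between 14.65 and 14.81 in all 4 arrays, and Plac8 and Mgst1 were lower by 1 in neither tissue or in 1 tissue only.

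**Figure D3:**
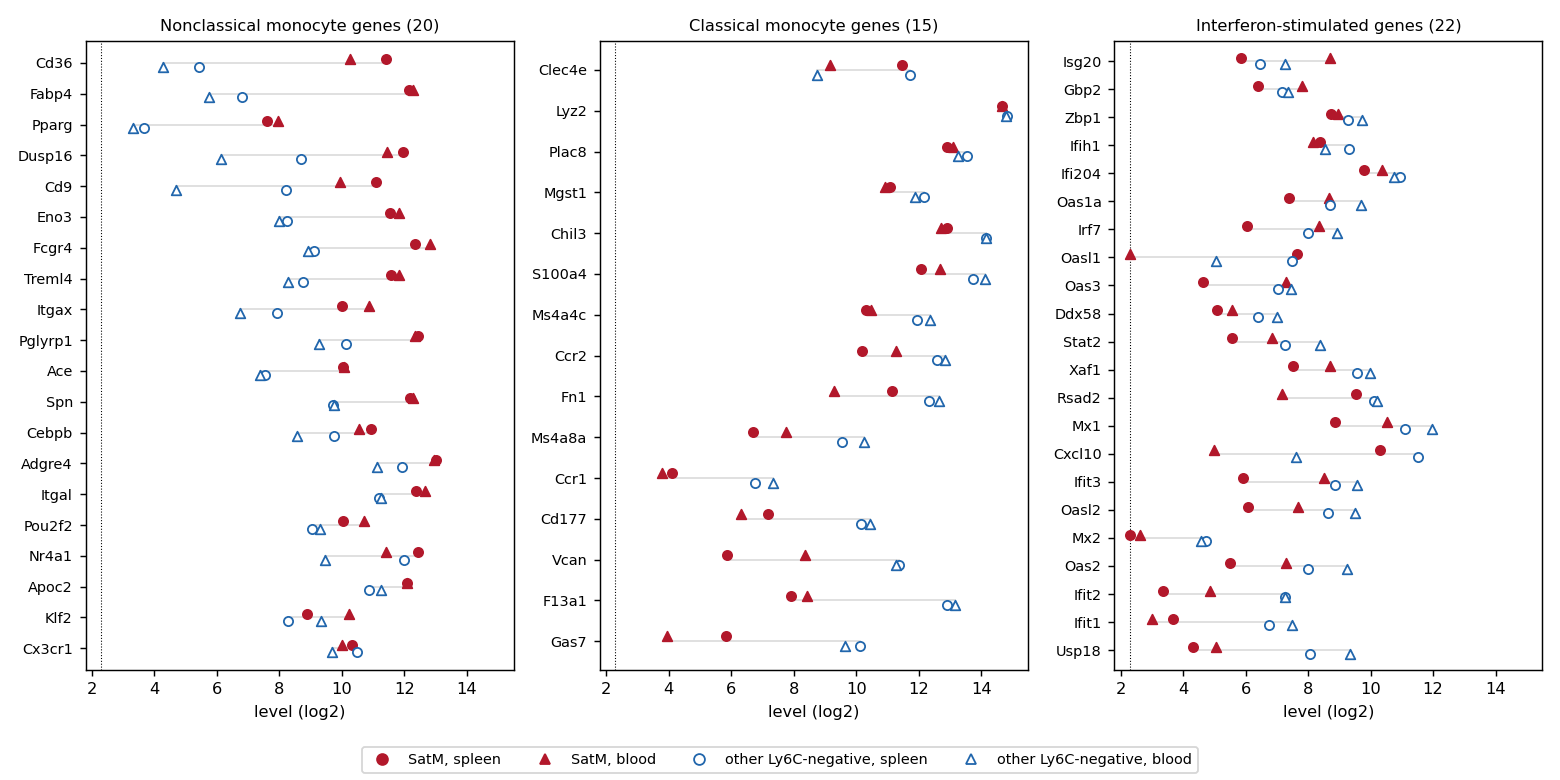
Levels in log2 of the tested members of 3 lists, nonclassical monocyte, classical monocyte and interferon-stimulated genes, ordered by the mean difference. Symbols are as in the plot of the leading genes; 15 of 20, 0 of 15 and 0 of 22 members were higher in SatM by at least 1 in both tissues, and 0, 11 and 13 were lower.

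Genes lower in SatM also included receptors of dendritic cells. Of 15 dendritic cell genes tested, 6 were lower by at least 1 in both tissues, against 5.36% of all tested genes, and none was higher: Flt3, Batf3, Cd209a, Clec10a, Bst2 and Kmo. Flt3, the growth factor receptor of dendritic cell progenitors, was at 3.02 in spleen and 3.19 in blood SatM, against 8.51 in spleen and 8.30 in blood other Ly6C-negative cells. Cd209a, a DC-SIGN-like lectin of monocyte-derived dendritic cells, was at the floor in SatM of both tissues. Other Ly6C-negative cells had 8.09 in spleen and 7.64 in blood. On the mean log2 difference of both tissues Cd209a was at least 47.3-fold lower in SatM (at least 40.5-fold in blood). Xcr1, a marker of cross-presenting dendritic cells, was at the floor in all 4 arrays, and Siglech, a marker of plasmacytoid dendritic cells, was between 2.33 and 2.53. The summed log2 level of 16 dendritic cell genes was 13.84 in spleen and 12.78 in blood SatM, against 13.97 in spleen and 13.90 in blood other Ly6C-negative cells, and its part in the result was not tested.

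Of 15 antigen presentation genes tested, 3 were lower by at least 1 in both tissues (Ciita, the master regulator of class II genes, the thiol reductase Ifi30 and the co-stimulatory receptor Cd40) and 1 was higher (Cd83), against 2.53% of all tested genes higher and 5.36% lower. Ifi30 was at 11.51 in spleen and 11.28 in blood SatM, against 13.12 in spleen and 13.42 in blood other Ly6C-negative cells. The class II chain genes H2-Aa and H2-Ab1 had spleen differences of -0.60 and -0.82 and blood differences of -0.92 and -1.45.

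Klrd1 and Cd7 are genes of NK cells and other lymphocytes. Klrd1, the CD94 receptor chain, was at 4.68 in spleen and 4.21 in blood SatM, against 8.80 in spleen and 7.77 in blood other Ly6C-negative cells, and Cd7 was at 4.01 and 2.99 in SatM, against 8.32 and 6.52. Of 8 NK cell genes tested, 3 were lower in SatM by at least 1 in both tissues (Klrk1, Klrd1 and Gzma) and none was higher, against 2.53% of all tested genes higher and 5.36% lower. The sum of 14 NK cell genes was 7.80 in spleen and 8.60 in blood SatM, against 9.45 in spleen and 10.04 in blood other Ly6C-negative cells. The defining genes Ncr1, Eomes, Il2rb, Txk and Klrg1 were at the floor in all 4 arrays, and Ncr1 was at 9.73 in spleen and 11.86 in blood marker-negative cells.

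Other leading genes lower in SatM had roles in adhesion, the cytoskeleton and the cell interior. Itga1, the collagen-binding integrin alpha 1, had one of the largest differences, with 2.80 in spleen and 2.74 in blood SatM against 8.90 in spleen and 9.47 in blood other Ly6C-negative cells, and a fitted difference of -6.41 (SE 0.51, adjusted p = 0.194, limma). Olfm1, a secreted olfactomedin, was at 4.21 and 5.50 in SatM, against 9.08 and 10.09. Atrnl1, an attractin-like membrane protein, was at 3.44 and 2.82 in SatM, against 7.66 and 7.67. Inf2, an actin-nucleating formin, and Rilpl1, a protein that binds Rab GTPases, had spleen differences of -3.27 and -3.50 and blood differences of -3.55 and -3.43. Cox6b2, a cytochrome c oxidase subunit, was at 4.13 and 4.13 in SatM, against 7.60 and 7.59. Tctex1d2, a dynein light chain, and the unnamed transcript E230016K23Rik had spleen differences of -3.20 and -3.17 and blood differences of -3.30 and -3.26.

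Interferon-stimulated genes were measured lower in SatM of both tissues. These are genes that cells switch on when they sense type I interferon. Of 22 tested, 13 were lower by at least 1 in both tissues, against 5.36% of all tested genes, 9 were alike in both, and none was higher by 1 in both. The median difference was -1.82 in spleen and -1.42 in blood. The summed log2 level of the list was 12.34 in spleen and 12.71 in blood SatM, against 13.70 in spleen and 13.84 in blood other Ly6C-negative cells.

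The largest fitted difference (the mean of both tissues) among the members of the list was that of Usp18, the protease that removes Isg15 from proteins and damps interferon signalling. Ifit2 differed more in spleen, by -3.90, and Ifit1 more in blood, by -4.48. Usp18 had 4.31 in spleen and 5.05 in blood SatM, against 8.05 in spleen and 9.34 in blood other Ly6C-negative cells, with a fitted difference of -4.02 (SE 1.44, adjusted p = 0.440, limma). Ifit1, a sensor of viral RNA caps, was at 3.69 and 2.997 in SatM, against 6.76 and 7.48. Mx2 was at the floor in spleen and at 2.61 in blood SatM, against 4.72 and 4.59 in other Ly6C-negative cells. Mx1, which blocks influenza virus, was at 8.85 and 10.54 in SatM, against 11.09 and 11.96. SatM of both tissues were below both other arrays for Usp18, Ifit1, Mx1 and Mx2. Isg20 was the exception in blood, at 5.86 in spleen and 8.72 in blood SatM, against 6.47 in spleen and 7.26 in blood other Ly6C-negative cells, and Gbp2 likewise differed in sign between the tissues.

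The interferon-stimulated response element (GAAA, any 2 bases, GAAA) was looked for in the same 250 bases on both strands. Of the 13 interferon-stimulated genes lower in both tissues, 9 have a window, and 5 of the 9 hold the element, against 936 of all 27025 genes with a window (3.46%). Of the members of the list that were not lower by 1 in both tissues, 7 have a window and 3 hold the element, so it was found on both sides. Over all genes alike and lower in SatM it was in 12 of 364 (3.30%), and over those alike and higher in 6 of 154 (3.90%). The 5 stretches are shown because these genes were measured lower in SatM in both tissues. Each is 120 bases on the strand of the gene, with every match in capitals.
Ifit1, chr19:34640739-34640858, plus strand: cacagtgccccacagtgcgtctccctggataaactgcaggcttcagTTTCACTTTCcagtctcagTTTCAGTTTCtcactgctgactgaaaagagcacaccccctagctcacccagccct
Ifit3, chr19:34583335-34583454, plus strand: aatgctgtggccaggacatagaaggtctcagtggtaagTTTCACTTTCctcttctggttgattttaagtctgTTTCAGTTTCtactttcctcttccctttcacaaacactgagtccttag
Oas1a, chr5:120907526-120907645, minus strand: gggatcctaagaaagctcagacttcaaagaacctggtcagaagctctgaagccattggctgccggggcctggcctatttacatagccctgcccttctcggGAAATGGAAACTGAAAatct
Stat2, chr10:128270248-128270367, plus strand: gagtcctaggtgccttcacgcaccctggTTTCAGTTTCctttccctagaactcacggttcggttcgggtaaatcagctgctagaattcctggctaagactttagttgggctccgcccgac
Cxcl10, chr5:92349020-92349139, minus strand: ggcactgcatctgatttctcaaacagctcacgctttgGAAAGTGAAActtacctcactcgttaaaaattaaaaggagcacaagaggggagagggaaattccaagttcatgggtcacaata
Beside these sequences, Ifit3 was at 5.91 in spleen and 8.50 in blood SatM, against 8.86 in spleen and 9.57 in blood other Ly6C-negative cells. Oas1a, an enzyme that makes the activator of RNase L, was at 7.39 and 8.68 in SatM, against 8.70 and 9.69, and Stat2 was at 5.56 and 6.86, against 7.28 and 8.39. For these 3 genes both SatM arrays lay below both other arrays, with blood SatM the nearer to them. Cxcl10, a chemokine that draws T cells, differed more by tissue than by sort, with 10.30 in spleen and 4.98 in blood SatM, against 11.53 in spleen and 7.62 in blood other Ly6C-negative cells.

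**Figure D4:**
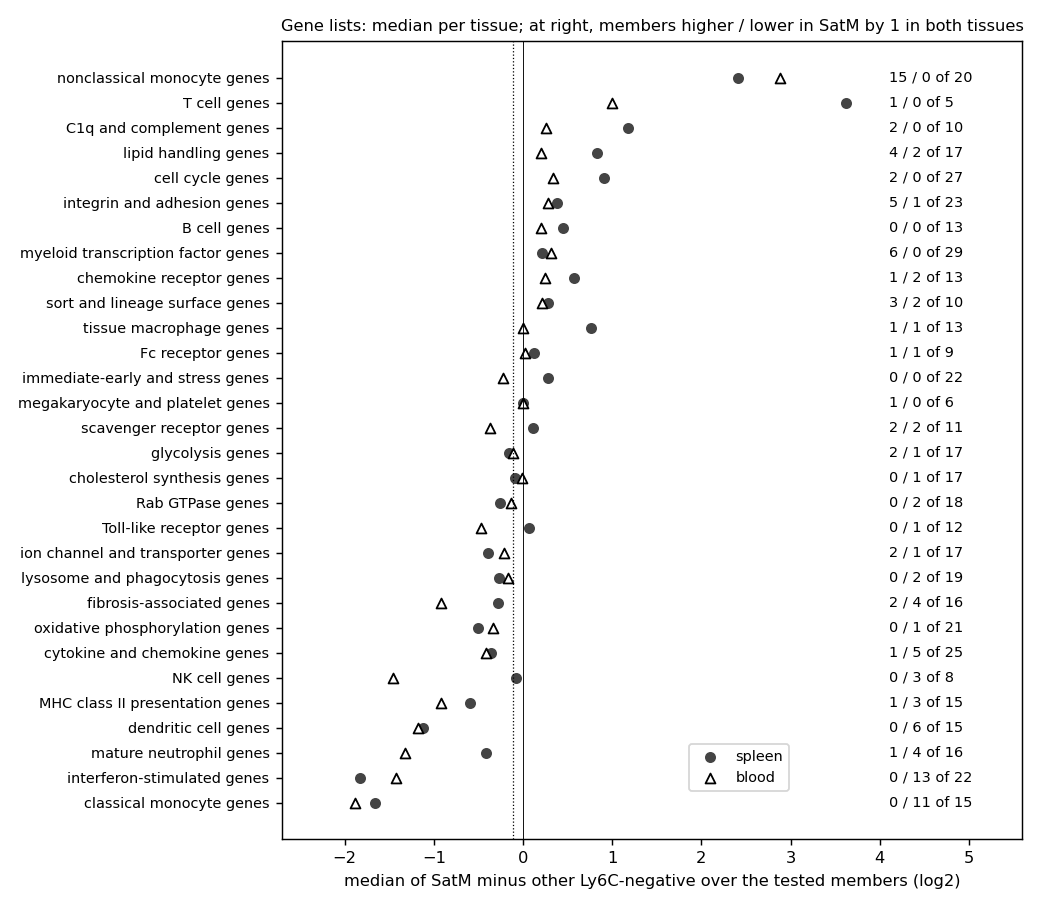
Median of SatM minus other Ly6C-negative cells over the tested members of each list with at least 5 of them, in log2, for spleen (filled circles) and blood (open triangles), with the median of all tested genes, -0.11, as a dotted line. At the right are the members higher and lower in SatM by at least 1 in both tissues: nonclassical monocyte genes head the plot with 15 of 20 higher, the T cell list has a median of 3.63 in spleen and 0.99 in blood, and classical monocyte and interferon-stimulated genes stand last with 11 of 15 and 13 of 22 lower.

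Of 16 fibrosis-associated genes tested, 2 were higher by at least 1 in both tissues, Tgfbr3 and Pdgfb, and 4 were lower, Fn1, Mmp8, Mmp9 and Mmp19, against 2.53% of all tested genes higher and 5.36% lower. Pdgfb, a growth factor for fibroblasts and pericytes, was at 5.06 in spleen and 5.43 in blood SatM, against 2.46 in spleen and the floor in blood other Ly6C-negative cells. Marker-negative cells were above SatM for Pdgfb, at 5.29 in spleen and 7.47 in blood. Mmp8, neutrophil collagenase, was at 2.61 and 3.51 in SatM, against 9.17 and 8.89, and Mmp19, another matrix metalloproteinase, at 6.17 and 5.20, against 8.62 and 9.72. Tgfb1, the growth factor itself, had differences of -1.22 in spleen and -0.97 in blood. Mmp8 and Mmp9 are also mature neutrophil genes, and of the 16 genes of that list tested 4 were lower in SatM by at least 1 in both tissues and 1 was higher.

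Of 23 integrin and adhesion genes tested, 5 were higher in SatM by at least 1 in both tissues (Itgal, Itgax, Pecam1, Ceacam1 and Spn), against 2.53% of all tested genes. Ceacam1 belongs to the gate, and Itgal, Itgax and Spn are also in the nonclassical monocyte list. Itga1 was the 1 gene lower, against 5.36% of all tested genes, so the lower share was near that of all genes. Pecam1, an adhesion molecule of endothelium, platelets and leukocytes, was at 6.14 in spleen and 5.11 in blood SatM, against 3.44 in spleen and 2.43 in blood other Ly6C-negative cells. Itgal and Itgax, the alpha chains of LFA-1 and CD11c, were higher by 1.17 and 2.07 in spleen and by 1.40 and 4.14 in blood. Itgax was at 11.15 in spleen and 10.70 in blood marker-negative cells, against 9.999 and 10.87 in SatM. Of 13 chemokine receptor genes tested, S1pr5, a sphingosine phosphate receptor that guides cells out of the bone marrow, was higher in SatM in both tissues, at 9.31 and 10.99 against 6.97 and 7.63, and Ccr1 and Ccr2 were lower. Marker-negative cells had S1pr5 at 7.99 in spleen and 11.28 in blood, so in blood they were above SatM.

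Of 17 lipid handling genes tested, 4 were higher in SatM by at least 1 in both tissues (Pparg, Fabp4, Cd36 and Mylip) and 2 were lower, the lipoprotein lipase Lpl and the thioesterase Acot7, against 2.53% of all tested genes higher and 5.36% lower. Pparg, Fabp4 and Cd36 are also in the nonclassical monocyte list. Lpl was at 10.51 in spleen and 9.39 in blood SatM, against 11.68 and 11.73 in other Ly6C-negative cells. Of 17 glycolysis genes, Eno3 and the lactate exporter Slc16a3 were higher and the hexokinase Hk1 was lower by at least 1 in both tissues, the last a share near that of all genes. Slc16a3 was at 9.61 and 9.61 in SatM, against 8.02 and 7.96. In 17 cholesterol synthesis genes, 21 oxidative phosphorylation genes and 19 lysosome and phagocytosis genes, none was higher by at least 1 in both tissues and 1, 1 and 2 were lower.

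Among the cytokine and chemokine genes, 5 of 25 tested were lower in SatM by at least 1 in both tissues (Il15, Il18, Tnfsf9, Ccl9 and Cxcl10) and 1 was higher, Lif, against 2.53% of all tested genes higher and 5.36% lower. Il18, a cytokine released by inflammasomes, had differences of -1.66 in spleen and -1.54 in blood. Ccl9, a macrophage chemokine, was at 11.47 and 11.45 in SatM, against 12.86 and 13.10. In the Fc receptor list, Fcgr4 was higher and Fcgr1, the high-affinity IgG receptor, was lower, at 7.70 and 8.74 in SatM against 9.40 and 10.25. Of 27 cell cycle genes, Cdc20 and Mcm6 were higher by at least 1 in both tissues and none was lower, against 2.53% of all tested genes higher and 5.36% lower. None of 22 immediate-early and stress genes differed by 1 in both tissues.

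The tissue panel of the series adds bone marrow and lung SatM, further marker-negative and marker-dull sorts and macrophages. When all its 15 arrays entered the fit, with terms for cell type and tissue and 6 residual degrees of freedom, limma called 10 of the 10311 genes (0.0970%). Scnn1a and Lair1 were called higher in SatM and Rab36, Olfm1, Itga8, Rfx2, Nid1, Map3k6, Crybb1 and Igfbp6 lower. Of the 10, 8 were alike in both tissues. Scnn1a differed by 3.70 and Rab36 by -2.39 in this fit (adjusted p = 0.00110 for each). Lair1, an inhibitory receptor for collagen, was at 11.78 in spleen and 10.92 in blood SatM, against 8.78 in spleen and 7.50 in blood other Ly6C-negative cells, with a difference of 3.35 (adjusted p = 0.0390, limma, 15 arrays). Nid1, a basement membrane protein, was at 3.14 and the floor in SatM, against 6.88 and 5.82, with a difference of -3.58 (adjusted p = 0.0225). Map3k6, a stress-activated kinase, was at 3.70 and 3.80 in SatM, against 6.23 and 6.32. Only Lair1 and Olfm1 of the 10 were bright. Scnn1a was at the floor in the marker-negative arrays of spleen and blood as well, and in the lung SatM array that the fit also held. Rab36 was at the floor in spleen SatM and in the marker-negative arrays of spleen and blood, and Igfbp6 in SatM of spleen and blood. Values at the floor show no spread between arrays, so the error of such genes, and with it their adjusted p, can be too small.

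A set of genes was high in the spleen SatM array alone. C1qb, a chain of the complement protein C1q, was at 11.66 in spleen and 7.61 in blood SatM, against 5.10 in spleen and 6.82 in blood other Ly6C-negative cells, and C1qa was at 7.67 in spleen SatM and between 2.30 and 2.35 in the other 3 arrays. Cd5l, a macrophage scavenger protein, was at 7.39 and Pf4, a platelet chemokine, at 8.63 in spleen SatM, and both were at or near the floor elsewhere. The T cell gene Bcl11b was at 8.21 in spleen and 3.30 in blood SatM, against 2.58 in spleen and 2.30 in blood other Ly6C-negative cells. These genes are named because their values stood out.

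The T cell, tissue macrophage and platelet lists were also highest in that array. The sum of 12 T cell genes was 9.62 in spleen and 6.99 in blood SatM, against 6.52 in spleen and 5.88 in blood other Ly6C-negative cells. Cd3e, a chain of the T cell receptor complex, was higher in SatM in both tissues, at 7.69 and 5.89 against 3.33 and the floor, and 10 of the 12 genes were below the upper quartile of every array. The sum of 19 tissue macrophage genes was 13.15 in spleen SatM and between 11.62 and 11.85 in the other 3 arrays, with Siglec1, Vsig4 and Cd209b at the floor in all 4. The sum of 11 megakaryocyte and platelet genes was 9.81 in spleen and 8.84 in blood SatM, against 7.41 in spleen and 7.37 in blood other Ly6C-negative cells, with Gp1bb, Gp5 and Gp6 at the floor in all 4. Vwf, the von Willebrand factor of platelets and endothelium, had 7.93 and 8.22 in SatM, against 4.22 and 2.98. The part of these cells in the spleen differences was not tested.

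Of the genes of opposite sign, 2 differed by at least 2 in each tissue. Timp2, an inhibitor of metalloproteinases, was at 11.04 in spleen and 5.28 in blood SatM, against 7.45 in spleen and 7.34 in blood other Ly6C-negative cells. Ecm1, an extracellular matrix protein, was at 10.05 and 5.73 in SatM, against 7.41 and 8.15. For both genes the spleen SatM array was the highest of the 4 and the blood SatM array the lowest. At the edge of the likeness limit, Arrdc4, Slc9a9 and Ints11 were just inside, with spleen differences of -3.15, -1.08 and -2.81 and blood differences of -2.15, -2.07 and -1.82. Aldh18a1, Nsmf and Itga8 were just outside, with spleen differences of 2.43, -2.20 and -2.04 and blood differences of 3.43, -1.20 and -3.05.

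The bone marrow arrays of the series share no array with the spleen and blood comparison. There, 3 SatM arrays and 2 inflammatory monocyte arrays had been measured. The genes were chosen for their level in SatM, and inflammatory monocytes are not the other Ly6C-negative cells. The shares below therefore describe these genes in bone marrow and do not test the spleen and blood differences. Of the 200 genes alike and higher in spleen and blood SatM, 141 (70.5%) had all 3 bone marrow SatM arrays above both inflammatory monocyte arrays, against 15.4% of all tested genes, and 2 had them all below. Of the 449 alike and lower, 349 (77.7%) had all 3 bone marrow SatM arrays below both inflammatory monocyte arrays, against 30.7% of all tested genes, and 2 had them all above. Of the leading genes, 15 of 15 higher and 10 of 15 lower did so. Fabp4 averaged 13.24 over 2 bone marrow SatM arrays and was at 11.82 in the third, against a mean of 4.34 in inflammatory monocytes. F13a1 averaged 2.42 over the same 2 arrays and was at 11.33 in the third, against 13.66, so the bone marrow SatM arrays differed among themselves in this gene.

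The single lung SatM array, titled BAL, is given by its levels alone. The leading genes were chosen on the spleen and blood arrays. Of the 15 higher in SatM, 15 were lower in lung SatM than in both spleen and blood SatM. Of the 15 lower, 13 were above both in the lung array. Tgfbr3, Tmem26 and Scnn1a were at the floor there, Cd36 was at 6.52 and Fcgr4 at 9.10, while Tcf7l2, at 11.37, was close to the 11.52 and 11.45 of spleen and blood SatM. Olfm1 was at 11.71 and Usp18 at 8.51 in lung SatM. No other Ly6C-negative array from lung was analysed here, so no difference within lung could be formed.

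**Figure D5:**
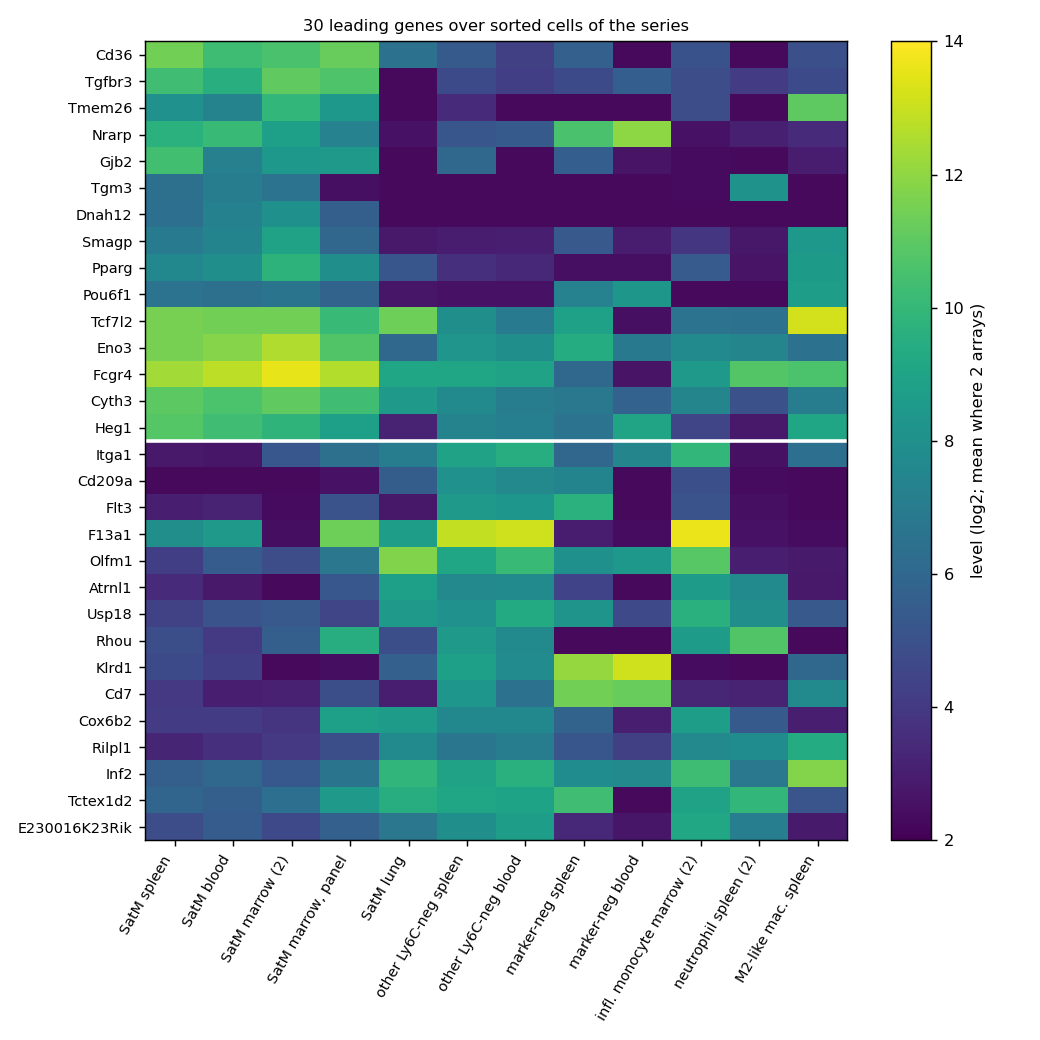
Colour gives the level in log2 (mean where the axis names 2 arrays) of the 15 leading genes higher in SatM, above the white line, and the 15 lower, below it, over sorted cells of the series. Lighter colours are higher levels: the genes were chosen on the spleen and blood columns of SatM and other Ly6C-negative cells, and Nrarp and Klrd1 are lightest in a marker-negative column. Pou6f1 and Cd7 are also lighter in both marker-negative columns than in the spleen and blood columns of SatM and other Ly6C-negative cells.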

How the data were processed

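The deposited values are log2 levels per probe set, 1 column per array; that the base is 2 was inferred from their range of 2.30 to 16.02. How the authors normalised them is not given in the sources used here. The table has 1 missing value. Arrays have no read depth, and their number limits the precision. Of 45101 probe sets, 34945 with 1 gene symbol in the platform annotation were kept, and for each of 18193 genes the probe set brightest on average across all 35 arrays was used. Genes were tested where at least 2 of the 4 compared arrays lay above that array's median.

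The main fit (limma 3.58.1, R 4.3.3, lmFit and eBayes with trend) held 6 arrays with terms for cell type and tissue, 2 residual degrees of freedom and Benjamini-Hochberg adjustment over all tested genes. Calls needed an adjusted p under 0.05 and a difference of at least 1. The code was tested on simulated data. Named genes were the 15 largest differences each way among bright genes alike in both tissues (over the 75th percentile of the array in both arrays of the brighter sort), ranked by the smaller tissue difference because none was called. They also included up to 2 members of each list, the sort genes, and genes of opposite sign or at the likeness limit. Further list members were named after their values were seen. The members and the 33 lists were chosen with earlier results of these data known. Alternatives were other fits, normalisation, centring, filters, probe set choices and leaving out each array. Promoter windows came from RefSeq (GRCm38.p6). Figures used Python 3.11.15, pandas 2.3.3 and matplotlib 3.10.9.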

Additional observations from a re-analysis of the deposited data

Results flagged for a closer look

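Timp2 and Ecm1 were singled out because SatM lay above other Ly6C-negative cells in spleen and below them in blood, by at least 2 in each. The differences of Timp2 were 3.59 in spleen and -2.06 in blood, and those of Ecm1 were 2.64 in spleen and -2.42 in blood. With 1 array of each sort in each tissue, the difference between the tissues was not tested. The 5 other probe sets of Timp2 were dim, and of these the probe set with the highest level in spleen SatM gave 0.70 in spleen and -2.75 in blood.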

How the results depend on the processing

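The count of called genes was 0 in the fit of 6 arrays and 0 under every alternative but 1. With all 15 arrays of the tissue panel it was 10, of which 8 were alike in both tissues. Leaving out each compared array in turn gave 0 to 0 calls, with a smallest adjusted p of 0.514 or above. Alternatives for the count of genes alike in both tissues were added after seeing the data, and this count cannot be formed with an array left out. It was 432 (297 lower in SatM) with a filter at the 75th percentile, which tests fewer genes, and 1143 (429 higher and 714 lower) with every probe set by itself, which tests more. With tissue differences within 0.5 of each other, 132 genes were higher in SatM. Centring on the median of the tested genes gave 41.1% higher among the genes alike in both tissues, against 30.8% without it.

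Directions turned for some named genes, and no named gene had been called in the main fit. With each compared array left out in turn, the difference ran from -1.31 to 1.61 for Adgre1, -0.23 to 3.13 for Adgre4, -2.73 to 0.0326 for Cd40, -1.68 to 2.21 for Csf1r, -3.45 to 1.25 for Ctsh, -2.35 to 2.57 for Ecm1, -0.30 to 1.001 for Itgam, -0.0713 to 0.284 for Ptprc, -0.27 to 0.276 for Siglecf and -2.86 to 4.38 for Timp2. Ecm1 was at -0.21 with 15 arrays, Siglecf at -0.0465 after quantile normalisation and Timp2 at -0.11 with the mean of its probe sets. With all arrays, the paired spleen and blood differences were 0.27 and 0.27 for Csf1r and -1.35 and -1.34 for Cd40. Those of Timp2, Ecm1 and Siglecf were opposite in sign, and those of the other genes named here were of the same sign. With an array left out, the fit sets its tissue term partly on the marker-negative arrays, where Csf1r was at 9.49 in spleen and 2.30 in blood. The cause of the turns was not tested. Of the other values for named genes, 1119 kept their direction and side of the threshold and 10 came to pass it with 15 arrays.

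The tissue term of the fit pairs the arrays by tissue, and without it, on the 4 compared arrays, 0 genes were called. As to a block by replicate number, no paired analysis was possible because the compared arrays carry no such numbers in their titles. With 2 arrays a sort, an exact 2-sided permutation test that ignores the pairing by tissue cannot go below p = 0.333. A permutation test that keeps the pairing cannot go even that low. A difference between the tissues has no error of its own.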
